A study of Homo sapiens with 34 samples.

Results

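The Fc receptor-like genes FCRL1, FCRL2, FCRL3, FCRL4, FCRL5, FCRLA and FCRLB and the inhibitory IgG receptor gene FCGR2B were followed across 34 established human B-cell lymphoma cell lines. The 8 genes were taken by name from a table of 31975 genes, and 8 of 8 were among the 22167 genes kept after a filter on low values. FCRL6 was not analysed here. The lines were labelled mantle cell lymphoma (MCL, n = 11), diffuse large B-cell lymphoma (DLBCL) with a germinal centre B-cell profile (GCB DLBCL, n = 14), DLBCL with an activated B-cell profile (ABC DLBCL, n = 6) and Burkitt lymphoma (BL, n = 3). The labels give each line's name and pathology and name no treatment, genotype or culture condition. Each line was seen in 1 library, and the lines of a pathology served as its replicates.

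Values are variance-stabilised read counts on a log2 scale, on which a gene with 0 reads lies at 4.55 and a single read at 4.70 to 5.63, depending on the library. Depth, recovered from the values and given in M (1000000) reads, ran from 60.1 to 109 in the MCL libraries and from 22.6 to 92.4 in the BL libraries. The ABC DLBCL libraries held 22.7 to 165 M and the GCB DLBCL libraries 2.55 to 108 M. A set of 9 libraries, called the second library class here, had 0 reads of both ZNF593 and EMC6 and was shallow, at 2.55 to 22.7 M reads. It held the GCB DLBCL lines DB, DOHH-2, Karpas422, NU-DHL-1, OCI-Ly1, OCI-Ly7, SU-DHL-6 and WSU-DLCL2 and the ABC DLBCL line NU-DUL-1. The first class held the other 25 libraries, among them all 11 MCL and 3 BL lines. For each member the difference between MCL and GCB DLBCL is therefore given over all lines and within the first class. The B-cell markers MS4A1, CD79A, CD79B, PAX5 and CD22 were expressed in every line. The summed myeloid markers, in reads divided by the library's size factor, reached at most 172 in MCL, 53.5 in GCB DLBCL, 224 in ABC DLBCL and 99.1 in BL, and S100A8 was at 0 in every line outside MCL. The summed T-cell markers, in the same unit, reached 8422 in MCL, 6285 in GCB DLBCL, 3200 in ABC DLBCL and 1871 in BL, with TRAC up to 8277 in MCL and 6148 in GCB DLBCL, CD3G up to 4434 in GCB DLBCL, and CD3D and CD2 at most 102 in any group. Epithelial markers reached 1006 in MCL, 7990 in GCB DLBCL (EPCAM up to 7380) and 3303 in ABC DLBCL (KRT8 up to 3299), and at most 1.91 in BL. CXCL13 reached 5707 in ABC DLBCL, and natural killer cell markers summed to at most 261 in any line. The part of these genes in the members' results was not tested.

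FCRL1 to FCRL5 are transmembrane receptors of the immunoglobulin superfamily that sit mainly on B cells and tune signalling by the B-cell receptor. Their cytoplasmic tails carry inhibitory (ITIM) or activating-type (ITAM-like) tyrosine motifs, and ITIMs recruit phosphatases such as SHP-1, the product of PTPN6. FCGR2B binds the Fc part of IgG in immune complexes and dampens the B-cell receptor through the lipid phosphatase SHIP1, whereas FCRLA and FCRLB are intracellular relatives without such a surface role. FCRL5 and FCGR2B are also studied as antibody targets or as modifiers of antibody therapy in B-cell malignancies.

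The 8 genes lie on chromosome 1 in 2 groups (RefSeq, GRCh38.p14). FCRL5 (ENSG00000143297, chr1:157513377-157552515), FCRL4 (ENSG00000163518, chr1:157573747-157598085), FCRL3 (ENSG00000160856, chr1:157676481-157700956), FCRL2 (ENSG00000132704, chr1:157745733-157777132) and FCRL1 (ENSG00000163534, chr1:157794403-157820120) follow each other on the minus strand. FCGR2B (ENSG00000072694, chr1:161647243-161678654), FCRLA (ENSG00000132185, chr1:161707229-161714352) and FCRLB (ENSG00000162746, chr1:161721544-161728143) lie on the plus strand. Deposited values are per gene and were not divided by transcript length, so levels are compared between lines for 1 gene and not between genes.

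Promoter sequence was available in RefSeq for 8 of 8 genes, in 11 windows of 300 bases. The 120 bases directly before the annotated start are printed for the genes whose windows share a short ETS-type sequence, and for FCRLB, which is the one gene with an octamer. Letters run 5′ to 3′ on the gene's own strand. Capitals mark GGAAGT or its reverse complement ACTTCC, the PU.1 core GAGGAA or TTCCTC, the ETS-IRF composite (GGAA and GAAA with 2 bases of any kind between them, or TTTC and TTCC on the other strand), and the octamer ATGCAAAT or ATTTGCAT. In FCRL1 and FCRLA the first 2 of these overlap in ACTTCCTC, and in FCGR2B the composite overlaps ACTTCC.
FCRL5 (chr1:157552516-157552635, minus strand): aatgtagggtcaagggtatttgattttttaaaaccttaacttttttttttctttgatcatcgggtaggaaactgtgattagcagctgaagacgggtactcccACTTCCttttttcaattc
FCRL2 (chr1:157777133-157777252, minus strand): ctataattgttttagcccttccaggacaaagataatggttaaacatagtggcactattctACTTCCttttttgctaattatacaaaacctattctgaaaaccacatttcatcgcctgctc
FCRL4 (chr1:157598086-157598205, minus strand): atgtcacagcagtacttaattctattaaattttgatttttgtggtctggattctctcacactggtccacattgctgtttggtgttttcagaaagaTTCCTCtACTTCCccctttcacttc
FCRL1 (chr1:157820121-157820240, minus strand): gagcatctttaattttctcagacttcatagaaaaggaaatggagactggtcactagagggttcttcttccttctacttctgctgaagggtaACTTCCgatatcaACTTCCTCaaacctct
FCRLA (chr1:161707109-161707228, plus strand): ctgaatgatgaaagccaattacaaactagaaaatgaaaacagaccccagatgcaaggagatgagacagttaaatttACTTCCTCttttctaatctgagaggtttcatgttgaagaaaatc
FCGR2B, second start (chr1:161663023-161663142, plus strand): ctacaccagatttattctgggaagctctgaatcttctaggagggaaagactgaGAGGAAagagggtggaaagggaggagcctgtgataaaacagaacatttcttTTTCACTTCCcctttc
FCRLB, first start (chr1:161721424-161721543, plus strand): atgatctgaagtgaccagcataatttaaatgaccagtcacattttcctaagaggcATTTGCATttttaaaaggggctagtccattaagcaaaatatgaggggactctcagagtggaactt

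GGAAGT, on either strand, stood in at least 1 window of 6 of the 8 genes. It stood in 6 of the 11 windows of these genes and in 22.8% of all 35116 windows of the same length. This sequence was added after the windows had been read, and it was absent from the windows of FCRL3 and FCRLB. GAGGAA was found for 5 of the 8 genes, in 5 of 11 windows, against 27.9% of all windows. CAGCTG (an E-box) was found for 5 genes, in 6 of 11 windows, against 17.9%. An NF-kB-type sequence (GGGA and CC with 4 bases between them) was found for 3 genes, in 4 of 11 windows, against 25.6% of all windows. An EBF1-type sequence (TCCC and GGGA with 2 bases between them) was found for 0 against 1.21%. The ETS-IRF composite was found for FCGR2B alone, at -16 to -7 from its second start, against 2.82% of all windows. The octamer was found for FCRLB alone, at -65 to -58 from its first start, against 1.77% of all windows. These matches are descriptions of letters, and no binding was measured.

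FCRL5 and FCGR2B were expressed in all 11 MCL lines, whereas each was close to 0 reads in some lines of other pathologies. FCRLB was low and even in MCL and ranged widely in GCB DLBCL. FCRL1, FCRL2 and FCRL3 ranged widely among lines of a single pathology, and the ranges of the pathologies overlapped. FCRL4 lay above 8.55, which is 4 units over the lowest value, in 4 of 34 lines. FCRLA was expressed in every line, from 9.76 in Pfeiffer to 14.74 in NU-DUL-1.

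**Figure D1:**
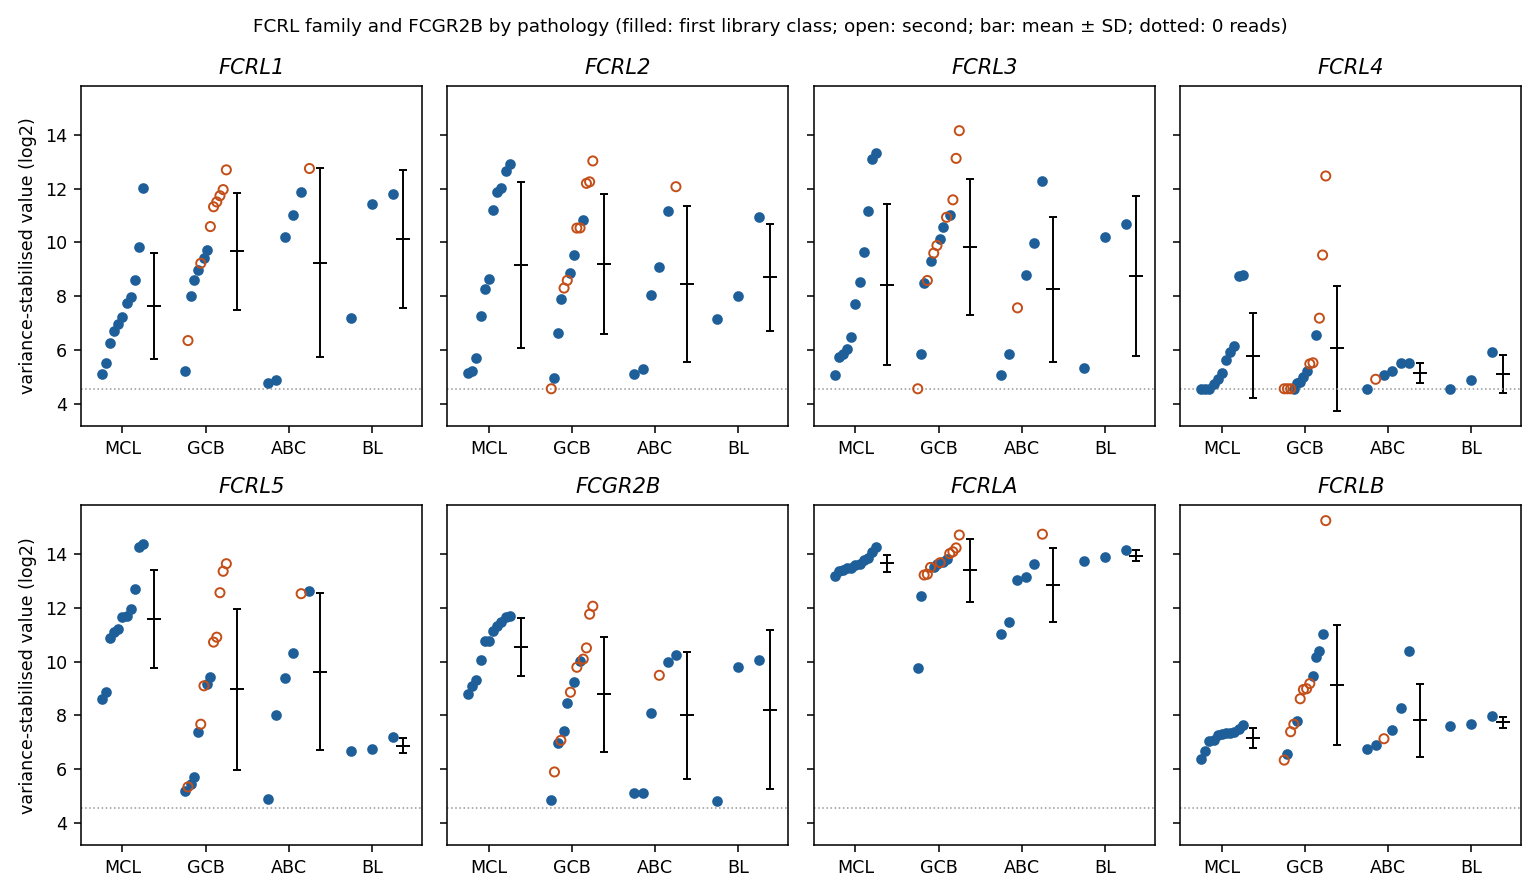
Variance-stabilised value (log2, y axis) of each of the 8 genes in every line, grouped by pathology on the x axis. Filled points are first-class libraries and open points second-class ones, the bar is the mean ± SD over lines, and the dotted line at 4.55 is 0 reads. FCRL5 lies at 8.63 or above in all 11 MCL lines, and FCRLB at 7.64 or below in all 11.

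The spread of these genes over the 34 lines was large for most of them. The SD of FCRL5 was 2.82, at the 99.3rd percentile of the 22167 genes, and those of FCRL3, FCRL2 and FCRL1 lay at percentiles 99.1, 99.05 and 98.5. FCGR2B was at percentile 96.4, and FCRLB and FCRL4 were both at 92.5. FCRLA, with an SD of 0.98, was at percentile 72.6. Among first-class lines alone FCRLB was at percentile 86.0, FCRL4 at 82.3 and FCRLA at 79.5. FCRL1, FCRL2, FCRL3, FCRL5 and FCGR2B stayed at 97.1 or above.

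The first question was how the inhibitory receptors that bind IgG, FCRL5 and FCGR2B, compared between MCL and the other lymphomas. FCRL5, which carries ITIMs and binds IgG, ran in MCL from 8.63 in Z-138 through a median of 11.68 in HBL-2 to 14.36 in SP-53, and reads ran from 453 in JVM2 to 59635 in SP-49. In GCB DLBCL its values ran from 5.17 in SU-DHL-10 to 13.64 in DOHH-2. Karpas422, SU-DHL-4 and Pfeiffer, with 1, 15 and 33 reads, were close to SU-DHL-10 at the bottom.
The highest GCB DLBCL values were all from second-class libraries, namely 10.73 in OCI-Ly7, 10.91 in OCI-Ly1, 12.57 in SU-DHL-6, 13.36 in NU-DHL-1 and 13.64 in DOHH-2. The 6 first-class GCB DLBCL lines did not exceed 9.45, reached in SU-DHL-5, and only the MCL lines Z-138 and JVM2 (8.87) fell within their range.
In ABC DLBCL, FCRL5 was at 4.88 in SU-DHL-8, 8.02 in OCI-Ly3, 9.39 in OCI-Ly10, 10.34 in HBL-1, 12.53 in NU-DUL-1 and 12.62 in MD903. In BL it was at 6.66 in Daudi, 6.75 in Ramos and 7.19 in Raji. The ABC DLBCL values thus spanned most of the MCL range and below, while the 3 BL values lay under every MCL value.

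FCRL5 was higher in MCL, at 11.58 ± 1.83 (SD, n = 11), than in GCB DLBCL, at 8.97 ± 2.99 (SD, n = 14). The difference over all lines was 2.61 ± 0.96 (SE, limma adjusted p = 0.046). It was 1 of 2 members called in that contrast, beside 23.7% of all genes, so the count of members called was close to the background. By direction, 1 of 8 was higher and 1 of 8 lower, beside 11% and 12.7% of all genes. Within the first class FCRL5 lay 4.53 ± 0.99 higher in MCL (limma adjusted p = 0.015), against a GCB DLBCL mean of 7.05 ± 1.92 (SD, n = 6). In that fit 2 of 8 members were called beside 2.83% of all genes, 1 higher beside 1.56% and 1 lower beside 1.27%.
The pooled call of FCRL5 was lost (adjusted p up to 0.085) when any of 21 of the 34 lines was left out, while the difference stayed between 2.32 and 2.97. It held without any 1 of MD903, NU-DUL-1, OCI-Ly3, SU-DHL-8, DOHH-2, NU-DHL-1, OCI-Ly1, OCI-Ly7, SU-DHL-5, SU-DHL-6, Toledo, JVM2 and Z-138. Among first-class lines the call was lost only without SU-DHL-10, at 4.15 with an adjusted p of 0.052.

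The second library class moved with these values. In a fit with class as a covariate, 3 of 8 members were higher in the second class, beside 16.2% of all genes called higher and 25.4% called in either direction. FCRL5 was 3.39 ± 1.02 higher there (limma adjusted p = 0.013), FCRL1 2.71 ± 1.03 (adjusted p = 0.049) and FCRLA 1.27 ± 0.40 (adjusted p = 0.018). The class difference was 1.70 ± 0.87 for FCGR2B (adjusted p = 0.16) and -0.31 ± 0.75 for FCRLB (adjusted p = 0.82). Since each line was seen in 1 library, the class of a library and the biology of its line cannot be told apart.

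Against the unweighted mean of the 3 other pathologies, FCRL5 was 3.09 ± 0.94 higher in MCL over all lines (limma adjusted p = 0.052), and 0 of 8 members were called beside 4.46% of all genes. At an unadjusted p under 0.05, 3 members (FCRL1, FCRL5 and FCGR2B) passed, and limma with voom weights on the recovered reads called 2, FCRL5 and FCGR2B. Within the first class the difference of FCRL5 was 3.93 ± 0.80 (limma adjusted p = 0.0073), and 2 of 8 members were called, beside 3.97% of all genes. That call of FCRL5 held when any 1 of the 25 first-class lines was left out, with differences from 3.58 to 4.22. Against BL the difference was 4.71 ± 1.56 over all lines (adjusted p = 0.14) and 4.71 ± 1.27 within the first class (adjusted p = 0.060), and no member was called beside 1.17% and 1.54% of all genes. All MCL and BL lines were first class, so both fits compared the same lines and only the estimate of spread changed. In MCL against BL, FCRL5 alone passed an unadjusted p of 0.05 in both fits, and voom called 0 members. Against ABC DLBCL it was 1.95 ± 1.21 (adjusted p = 0.63) and 2.53 ± 1.05 (adjusted p = 0.27), and no member was called beside 0.69% and 0.735% of all genes. Unadjusted, FCGR2B passed over all lines and FCRL5, FCRLA and FCGR2B within the first class, and voom called 0 members.

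**Figure D2:**
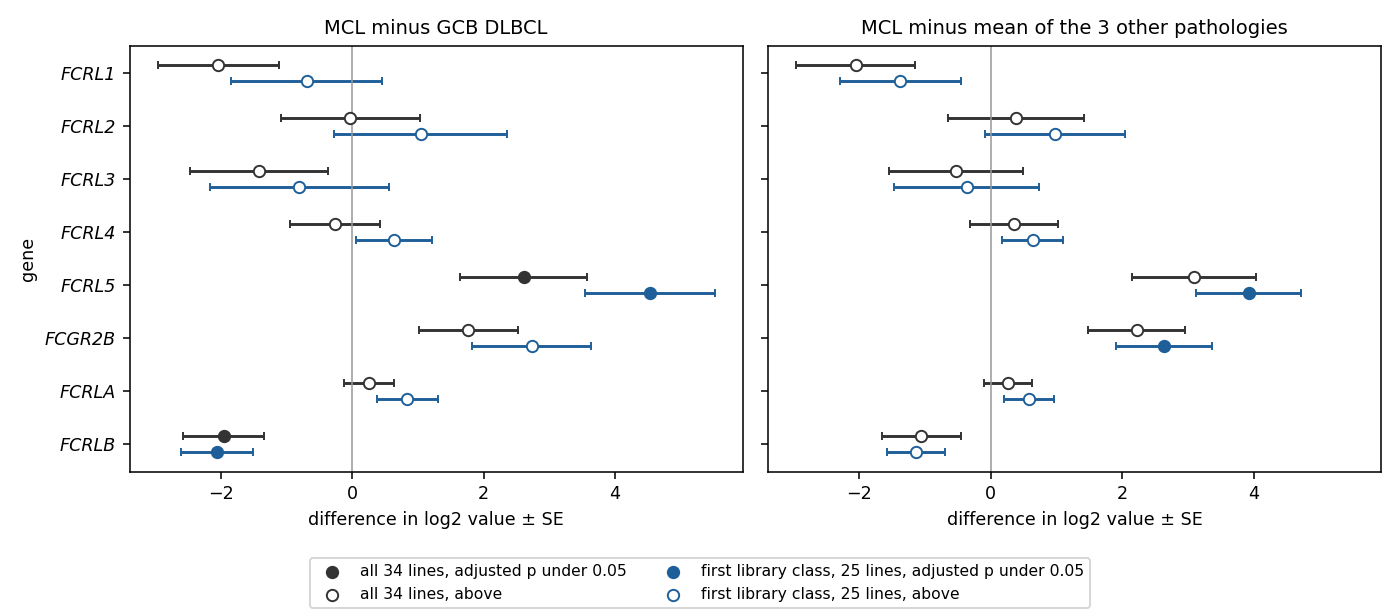
Difference in log2 value ± SE (x axis) for each gene (y axis), for MCL against GCB DLBCL on the left and against the mean of the 3 other pathologies on the right. Dark points use all 34 lines and blue points the 25 first-class lines, and filled points have an adjusted p under 0.05. FCRL5 has the highest difference in both panels, 2.61 and 4.53 on the left and 3.09 and 3.93 on the right.

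FCGR2B, the inhibitory IgG receptor, lay in MCL between 8.79 in Mino and 11.70 in HBL-2, with a median of 10.77 in JVM2, from 895 to 11396 reads. In GCB DLBCL it ran from 4.84 in Pfeiffer to 12.06 in Karpas422, and WSU-DLCL2 had 2 reads (5.90) in a library of 2.97 M. In ABC DLBCL it was at 5.10 in MD903 and 5.12 in SU-DHL-8, from 7 and 9 reads, and at 8.10 in OCI-Ly3, 9.49 in NU-DUL-1, 9.99 in HBL-1 and 10.26 in OCI-Ly10.
In BL, Ramos had 1 read of FCGR2B (4.80), against 9.78 in Raji and 10.04 in Daudi. Lines with almost no FCGR2B therefore stood in each of the 3 other pathologies and in none of the 11 MCL lines. The upper parts of the ranges overlapped.

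The mean of FCGR2B was highest in MCL, at 10.56 ± 1.07 (SD, n = 11). GCB DLBCL followed at 8.79 ± 2.14 (SD, n = 14), then BL at 8.21 ± 2.95 (SD, n = 3) and ABC DLBCL at 8.01 ± 2.37 (SD, n = 6). The last 3 means differed from each other by less than their spread. Over all lines no MCL contrast of FCGR2B passed in the fit of 1 mean per pathology, with 2.22 ± 0.73 against the mean of the others (limma adjusted p = 0.077), 1.77 ± 0.75 against GCB DLBCL (adjusted p = 0.081), 2.55 ± 0.95 against ABC DLBCL (adjusted p = 0.27) and 2.35 ± 1.22 against BL (adjusted p = 0.48). It passed over all lines against the mean of the others with class as a covariate (2.64, adjusted p = 0.040) and with voom (3.57, adjusted p = 0.024), and against GCB DLBCL with voom (2.96, adjusted p = 0.038).
In the first class alone FCGR2B was higher in MCL than the mean of the others, by 2.64 ± 0.73 (limma adjusted p = 0.044). That call was lost when any of 14 of the 25 lines was left out (adjusted p up to 0.098, differences from 2.07 to 2.95). It held without any 1 of HBL-1, OCI-Ly10, HT, Pfeiffer, SU-DHL-4, Toledo, GRANTA519, Mino, Z-138, Raji and Daudi. It was not called there against GCB DLBCL, at 2.73 ± 0.91 (adjusted p = 0.10).

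FCGR2B has a near-identical copy, FCGR2C, and how reads were split between them is not stated, so the values of both are uncertain. In MCL the reads assigned to FCGR2C ran from 1.04% of those of FCGR2B in JVM2 to 35.2% in HBL-2, where 4007 and 11396 reads were counted. FCGR2C was 1.81 ± 0.52 higher in MCL than in GCB DLBCL (limma adjusted p = 0.013) and 1.68 ± 0.50 higher than in the mean of the others (adjusted p = 0.048). Within the first class these differences were 2.37 ± 0.60 (adjusted p = 0.035) and 1.91 ± 0.49 (adjusted p = 0.029). In the 6 lines with fewer than 10 FCGR2B reads, FCGR2C had 0 reads in MD903, SU-DHL-6 and WSU-DLCL2, 1 in Ramos and Pfeiffer and 2 in SU-DHL-8. SU-DHL-6 and WSU-DLCL2 were second-class libraries of 2.97 M reads each. There 9 and 2 reads of FCGR2B stood at 7.07 and 5.90, so SU-DHL-6 was not a silent line. Their 0 reads of FCGR2C say little at that depth. FCGR2A had 69 reads in SU-DHL-8. How reads were divided between these genes was not tested.

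The intracellular members differed from each other in pattern. FCRLB, whose product has no transmembrane part, lay in MCL between 6.37 in GRANTA519 and 7.64 in SP-49, with a median of 7.30 in MAVER-1 and 73 to 468 reads. In GCB DLBCL it ran from 6.34 in SU-DHL-6 through a median of 8.98 to 15.25 in Karpas422, where 5417 reads were counted in a library of 3.79 M. HT (11.01), SU-DHL-10 (10.39) and SU-DHL-5 (10.17) followed it.
In ABC DLBCL the values were 6.76 in SU-DHL-8, 6.90 in MD903, 7.13 in NU-DUL-1, 7.47 in OCI-Ly10, 8.26 in OCI-Ly3 and 10.39 in HBL-1. In BL they were 7.59 in Daudi, 7.68 in Ramos and 7.97 in Raji. Of the 14 GCB DLBCL lines, 9 lay above 8.55, which is 4 units over the lowest value, as did HBL-1 among the others and none of the 11 MCL lines.

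FCRLB was lower in MCL, at 7.18 ± 0.37 (SD, n = 11), than in GCB DLBCL, at 9.13 ± 2.24 (SD, n = 14), with a difference of -1.95 ± 0.61 (limma adjusted p = 0.022). The call held when any 1 of the 34 lines was left out, and the difference was -1.48 without Karpas422. Restricted to first-class lines, it was -2.06 ± 0.54 (adjusted p = 0.041), against a GCB DLBCL mean of 9.23 ± 1.71 (SD, n = 6), and was lost without any of 13 of the 25 lines (adjusted p up to 0.12). The call of FCRLB held there without any 1 of HBL-1, MD903, OCI-Ly10, OCI-Ly3, SU-DHL-8, Pfeiffer, Toledo, JVM2, REC-1, Raji, Ramos and Daudi. Against the mean of the others FCRLB was not called, at -1.06 ± 0.60 (adjusted p = 0.37) over all lines. Between MCL, BL at 7.75 ± 0.20 (SD, n = 3) and ABC DLBCL at 7.82 ± 1.37 (SD, n = 6) no difference was called.

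FCRLA, an immunoglobulin-binding protein of the endoplasmic reticulum in B cells, had group means from 12.84 to 13.93. They were, in falling order, 13.93 ± 0.21 in BL (SD, n = 3), 13.65 ± 0.33 in MCL (SD, n = 11), 13.40 ± 1.17 in GCB DLBCL (SD, n = 14) and 12.84 ± 1.38 for ABC DLBCL (SD, n = 6). The 11 MCL lines lay between 13.17 in GRANTA519 and 14.28 in SP-49. The low values were 9.76 in Pfeiffer, 11.02 in SU-DHL-8, 11.46 in OCI-Ly3 and 12.45 in SU-DHL-5, none of them an MCL or BL line. No contrast of FCRLA was called. Its MCL differences were 0.25 ± 0.38 against GCB DLBCL (limma adjusted p = 0.65, and 0.84 ± 0.47 with adjusted p = 0.37 in first-class lines), 0.81 ± 0.48 against ABC DLBCL (adjusted p = 0.59) and -0.28 ± 0.61 against BL (adjusted p = 1).

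FCRL1, the member with ITAM-like motifs that acts as an activating co-receptor, ran in MCL from 5.09 in Z-138 through a median of 7.23 in SP-49 to 12.02 in REC-1, from 9 to 8562 reads. In GCB DLBCL it ran from 5.22 in Pfeiffer through a median of 9.58 to 12.70 in SU-DHL-6. In ABC DLBCL it was at 4.77 in OCI-Ly10 and 4.89 in OCI-Ly3, from 1 and 5 reads, and at 10.18 in HBL-1, 11.01 in SU-DHL-8, 11.88 in MD903 and 12.75 in NU-DUL-1.
In BL it was at 7.18 in Raji, 11.42 in Daudi and 11.81 in Ramos. ABC DLBCL thus held both nearly silent and strongly expressing lines, with nothing between 4.89 and 10.18. The means were 7.63 ± 1.99 in MCL, 9.25 ± 3.53 in ABC DLBCL, 9.67 ± 2.17 in GCB DLBCL and 10.14 ± 2.57 in BL (SD, n = 11, 6, 14 and 3).
FCRL1 was not called in MCL against the mean of the others, at -2.05 ± 0.90 (limma adjusted p = 0.22). Against GCB DLBCL it was at -2.04 ± 0.92 (adjusted p = 0.10), which passed the threshold only when Pfeiffer or REC-1 was left out (lowest adjusted p = 0.045). Within the first class that difference was -0.69 ± 1.14 (adjusted p = 0.83).

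FCRL2, an ITIM-bearing receptor found on memory B cells, ranged in MCL from 5.12 in JVM2, 5.20 in Z-138 and 5.68 in Mino up to 12.67 in SP-53 and 12.91 in REC-1, with a median of 8.63 in Jeko-1. In GCB DLBCL it ran from 4.55 in NU-DHL-1, with 0 reads, and 4.96 in Pfeiffer through a median of 9.20 to 13.03 in SU-DHL-6. In ABC DLBCL it was at 5.10 in OCI-Ly3, 5.29 in OCI-Ly10, 8.04 in SU-DHL-8, 9.09 in HBL-1, 11.16 in MD903 and 12.07 in NU-DUL-1.
In BL it was at 7.14 in Raji, 8.02 in Ramos and 10.95 in Daudi. The ranges overlapped throughout, and the MCL mean of 9.17 ± 3.08 (SD, n = 11) lay next to the GCB DLBCL mean of 9.19 ± 2.61 (SD, n = 14). The difference between them was -0.03 ± 1.06 (limma adjusted p = 0.99) over all lines and 1.05 ± 1.32 (adjusted p = 0.75) within the first class.

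FCRL3, an ITIM-bearing receptor whose ligand is secretory IgA, ranged in MCL from 5.06 in Z-138 through a median of 7.72 in GRANTA519 to 13.11 in SP-53 and 13.31 in REC-1, that is from 8 to 21096 reads. In GCB DLBCL it ran from 4.55 in NU-DHL-1, with 0 reads, through a median of 10.003 to 14.16 in SU-DHL-6. In ABC DLBCL it was at 5.05 in SU-DHL-8, 5.83 in OCI-Ly10, 7.56 in NU-DUL-1, 8.77 in OCI-Ly3, 9.98 in MD903 and 12.29 in HBL-1.
In BL it was at 5.33 in Ramos, 10.22 in Daudi and 10.70 in Raji. Of the 11 MCL lines 7 lay below 8.55, and of the 14 GCB DLBCL lines 3, so low values were found in both. The difference was -1.42 ± 1.05 (limma adjusted p = 0.32), and -0.80 ± 1.36 within the first class (adjusted p = 0.83).

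FCRL4, an ITIM-bearing receptor of tissue memory B cells, was above 8.55 in 4 of 34 lines. These were NU-DHL-1 at 12.47 (410 reads) and DOHH-2 at 9.53 (78 reads) among GCB DLBCL and SP-49 at 8.79 (1192 reads) and REC-1 at 8.75 (803 reads) among MCL. ABC DLBCL lines had 0 to 25 reads and BL lines 0 to 47. FCRL4 was at or near 0 reads in most lines of every pathology, and no contrast of it was called. MCL minus GCB DLBCL was -0.27 ± 0.68 (limma adjusted p = 0.80) over all lines and 0.64 ± 0.58 (adjusted p = 0.63) within the first class. NU-DHL-1, the line with the highest FCRL4, had 0 reads of FCRL2 and of FCRL3 in a library of 2.55 M reads, while its FCRL5 was at 13.36.

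Differences among the 3 other pathologies were not called for any member. ABC against GCB DLBCL had 0 of 8 called beside 0.726% of all genes, BL against GCB DLBCL 0 of 8 beside 0.153%, and BL against ABC DLBCL 0 of 8 beside 0.117%. The median difference over all genes was -0.15 in the second of these. For FCRL5, BL minus ABC DLBCL was -2.76 ± 1.69 (limma adjusted p = 0.72). In these 3 contrasts 0 members passed an unadjusted p of 0.05 over all lines, and voom called 0. Among first-class lines 0 of 8 were called as well, beside 0.226%, 0.171% and 0.537% of all genes, and FCRLA alone passed unadjusted, in BL against ABC DLBCL.

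Across single lines the members formed different combinations. Of the 8 genes, 7 lay above 8.55 in REC-1, HBL-1, DOHH-2 and OCI-Ly1, while 2 did in OCI-Ly3, SU-DHL-8 and Ramos and 1, FCRLA, in Pfeiffer. The same cut was used for every gene without regard to transcript length, so such counts compare lines and not genes. DOHH-2 and OCI-Ly1 were second-class libraries, the class in which FCRL1, FCRL5 and FCRLA were higher. FCRL1 to FCRL5 were all 5 above 8.55 only in REC-1 and DOHH-2. Among MCL lines, REC-1, SP-53 and SP-49 were high for most of FCRL1 to FCRL5, and Z-138 and JVM2 were low.

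**Figure D3:**
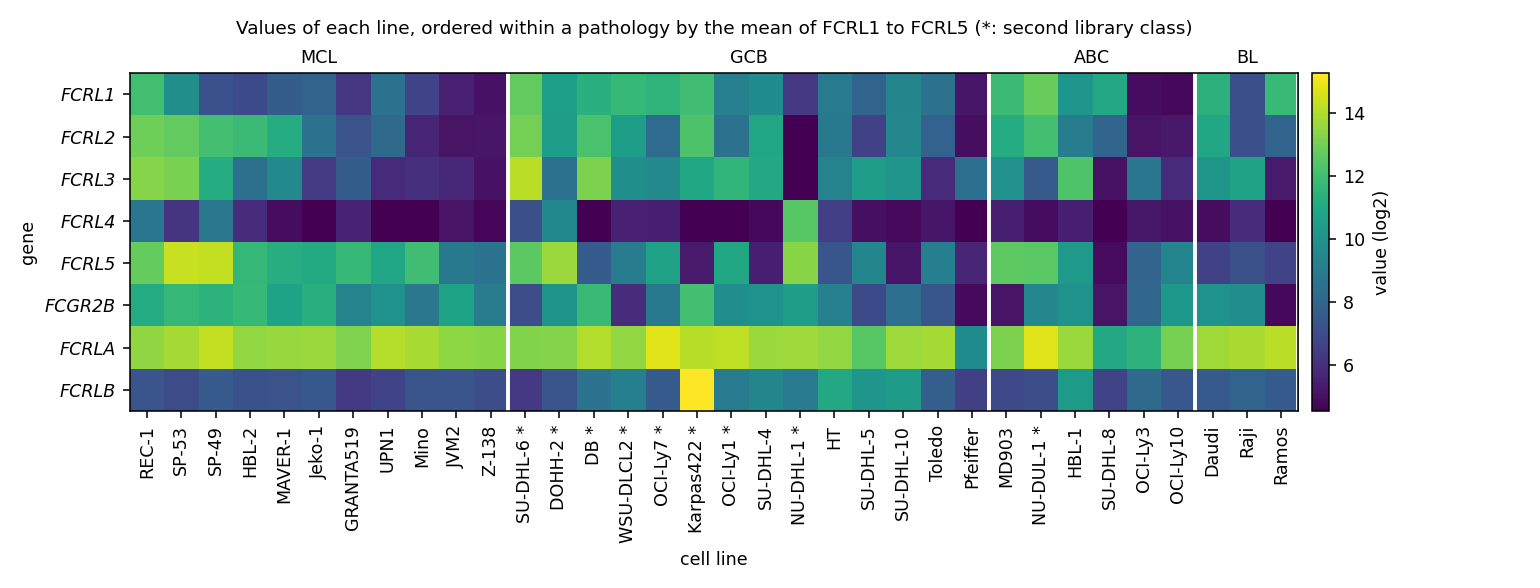
Value (log2, colour) of each gene (rows) in every line (columns), with lines ordered within a pathology by the mean of FCRL1 to FCRL5 and second-class libraries marked by an asterisk. Colours should be read along a row, since values are not per transcript length. In MCL the row of FCRL5 runs from 8.63 in Z-138 to 14.36 in SP-53, and that of FCRL3 from 5.06 in Z-138 to 13.31 in REC-1.

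Co-variation between members was described by Spearman's rho and Pearson's r, without a test, since the points share library, depth and, in the pooled set, pathology. Over the 11 MCL lines, FCRL2 and FCRL3 had rho = 0.94 (r = 0.89, and 0.87 without the 2 lines farthest from the median of FCRL2). FCRL3 and FCRL5 had rho = 0.85 there (r = 0.81, and 0.78 without 2 lines). FCRL1 and FCRL2 had rho = 0.81 (r = 0.73, and 0.60 without 2 lines).
Over the 25 first-class lines the same pairs had rho = 0.62 (r = 0.65, and 0.53 without 2 lines), 0.30 (r = 0.27, and 0.05) and 0.67 (r = 0.67, and 0.59). FCRL1 and FCRL5, at the ends of the cluster, had rho = -0.01 over these 25 lines (r = -0.03, and -0.23 without 2 lines). Over the 11 MCL lines they had rho = 0.5 (r = 0.60, and 0.51 without 2 lines). FCRLB had rho between 0.14 and 0.32 with the 7 other members in MCL. FCRL5 and FCGR2B had rho = 0.52 over the first class (r = 0.49, and 0.39 without 2 lines).

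**Figure D4:**
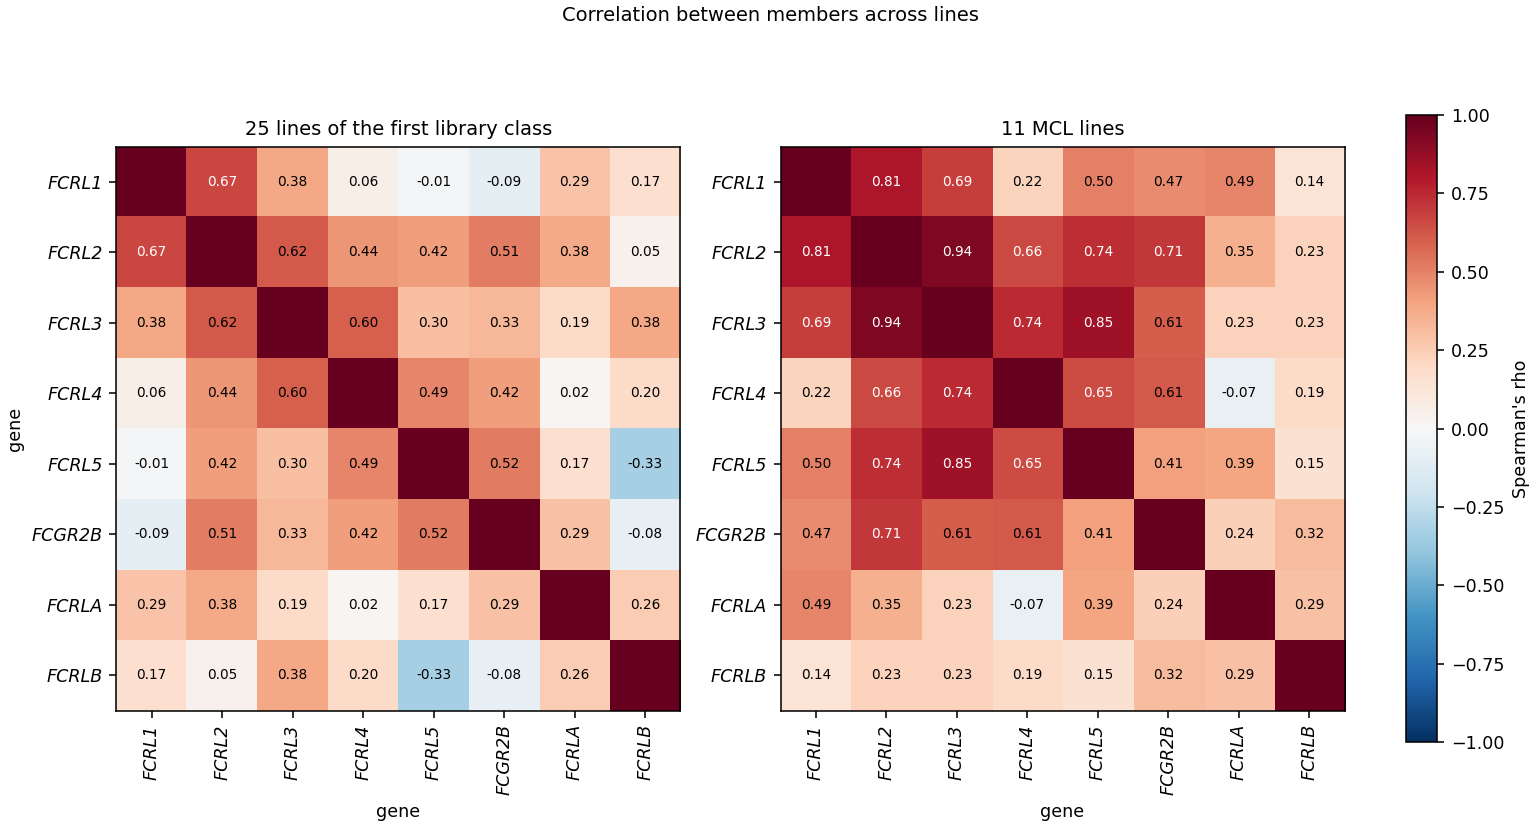
Spearman's rho (colour and number) between each pair of the 8 genes, over the 25 first-class lines on the left and the 11 MCL lines on the right. In MCL the block of FCRL2, FCRL3 and FCRL5 holds values of 0.74 to 0.94, while those of FCRLB lie between 0.14 and 0.32.

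The genes whose levels followed a member most closely over the 25 first-class lines were ranked by rho among all genes kept. For FCRL5 they were LILRA4 (rho = 0.83), PTPN12 (0.82) and PTPN6 (0.81), of which PTPN6 encodes SHP-1. Over all 34 lines these rho values were 0.47, 0.73 and 0.52. For FCGR2B they were FCGR2C (0.90), XAF1 (0.77) and SNN (0.76), and for FCRL3 they included SIDT2 (0.78) and RP11-135A1.3 (0.76).
For FCRL1 they were CLN3 (0.75), RP4-539M6.22 (0.72) and SLC5A10 (0.72), for FCRL2 PPP1R3F (0.73), GAPT (0.72) and RP11-68I3.11 (0.71), and for FCRL4 DTX4 (0.75), LPCAT1 (0.71) and PATL1 (0.70). For FCRLA they were CCNI (0.75), RBBP4 (0.70) and ANKMY2 (0.67), and for FCRLB ANKRD34A (0.76), POLR3GL (0.74) and POLD4 (0.74). None of the genes named for FCRL1 to FCRL5 was another member of the family. FCGR2C, the gene most like FCGR2B, is its near-identical copy, and how reads were split between them is not stated. All these rho values pool the pathologies, and the part of pathology in them was not tested.

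Other genes of the same pathway were read from gene lists in MCL against GCB DLBCL. In that contrast 1.56% of all genes were called higher and 1.27% lower within the first class, and 11% and 12.7% over all lines. Among other Fc receptors, 5 of 7 kept genes were higher in MCL and 0 lower, with a median difference of 1.81 beside -0.02 over all genes. They were FCMR, the IgM receptor, at 3.88 ± 0.89 (limma adjusted p = 0.0035), FCER2, the low-affinity IgE receptor CD23, at 3.28 ± 0.82 (adjusted p = 0.0064), PIGR at 2.59 ± 0.83 (adjusted p = 0.024), FCGR2C and FCGR2A. Among first-class lines 3 of 7 were higher, namely FCMR at 4.49 ± 0.88 (adjusted p = 0.0083), FCGR2C and FCGR2A at 1.61 ± 0.38 (adjusted p = 0.024).

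Of 20 signalling partners of ITIM and ITAM receptors, 3 were higher and 1 lower in MCL than in GCB DLBCL, with a median difference of 0.45. The higher ones were the adaptor GAB1, at 3.85 ± 0.85 (limma adjusted p = 0.0029), PTPN6, at 2.95 ± 0.78 (adjusted p = 0.0088), and the B-cell linker BLNK, at 1.04 ± 0.33 (adjusted p = 0.024). The lower one was PTPN11, which encodes SHP-2, at -0.54 ± 0.18 (adjusted p = 0.031). Within the first class GAB1 alone was called, at 4.50 ± 0.86 (adjusted p = 0.0070), and PTPN6 was at 2.47 ± 0.76 (adjusted p = 0.077). Against the mean of the others PTPN6 was 3.08 ± 0.76 higher in MCL (adjusted p = 0.014), and 2.82 ± 0.61 higher within the first class (adjusted p = 0.011).

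Of 12 other inhibitory receptors of B cells, 3 were higher and 1 lower in MCL than in GCB DLBCL, with a median difference of 0.82. The higher ones were CD5 at 3.05 ± 0.77 (limma adjusted p = 0.0067), CD300A at 2.94 ± 0.73 (adjusted p = 0.0060) and PECAM1 at 2.89 ± 0.73 (adjusted p = 0.0070), and CD22 was lower at -1.59 ± 0.53 (adjusted p = 0.030). In the first class alone 0 of 12 were called, with PECAM1 at 3.06 ± 0.85 (adjusted p = 0.050).

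The genes next to the members on chromosome 1 were read in the same contrast. Of 8 kept neighbours of the FCRL1 to FCRL5 cluster, SH2D2A was higher in MCL, at 2.38 ± 0.60 (limma adjusted p = 0.0069), and none was lower, with a median difference of 0.24. Within the first class it was at 2.37 ± 0.78 (adjusted p = 0.098), and CD1A was lower at -1.48 ± 0.38 (adjusted p = 0.037). Of 10 kept neighbours of FCGR2B, FCRLA and FCRLB, 4 were higher (FCGR2A, FCGR2C, DUSP12 and SDHC) and none was lower, with a median difference of 0.38. Restricted to first-class lines, 2 of these 10, FCGR2A and FCGR2C, were called, and DUSP12 was at 0.44 ± 0.29 (adjusted p = 0.46) and SDHC at 0.19 ± 0.29 (adjusted p = 0.81). Both FCGR2A and FCGR2C were counted among the other Fc receptors as well.

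Genes of B-cell stages were read beside the members in MCL against GCB DLBCL. Of 13 memory, atypical and plasma cell genes 5 were higher, among them TNFRSF13B at 4.10 ± 1.07 (limma adjusted p = 0.0082), IRF4 at 3.43 ± 1.11 (adjusted p = 0.025) and SDC1 at 2.23 ± 0.81 (adjusted p = 0.043), and none was lower, with a median difference of 1.07. In first-class lines 2 of the 13 were higher, TNFRSF13B at 5.48 ± 1.24 (adjusted p = 0.018) and IRF4 at 4.92 ± 1.19 (adjusted p = 0.028), SDC1 was at 2.80 ± 0.83 (adjusted p = 0.066), and the median was 1.35. Of 14 naive and germinal centre genes, 4 were higher, among them IGHM, IGHD and CCR7, and 6 lower, among them MME, RGS13 and BCL6, with a median of -0.44. In first-class lines 2 of the 14 were higher (IGHM and IGHD) and 5 lower, CCR7 was at 3.78 ± 1.39 (adjusted p = 0.15), and the median was -0.83. Of 14 transcription factors of B cells IRF4 alone was called in both fits, with medians of -0.24 and -0.20. The part of such stage genes in the differences of FCRL5 and FCRLB was not tested.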

How the data were processed

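The deposited table holds log2 variance-stabilised read counts per gene for 34 lines, and the submitters' processing notes list STAR 2.5.3a, R 3.6.1, DESeq2 1.26.0 and GRCh38 without a role. The read counter, annotation release and strand setting are not given in the sources used here. The extract protocol in the labels says that libraries were made at several times, and 30 lines are marked as re-analysed. Inverting the transform gave whole reads (tolerance 0.05) for 100% of values in every library. The transform compresses differences near the lowest value.

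The filter on low values required a value more than 1 unit over the lowest in 3 or more lines. limma 3.58.1 (R 4.3.3) fitted 1 mean per pathology with an intensity-dependent prior to all 22167 genes, and p-values were adjusted by Benjamini-Hochberg per contrast over 7 contrasts (threshold 0.05). The fit was tested on simulated reads that had the same dispersion for every gene and no effect of library class. That test does not show how the fit performs with the spread and class differences seen here. Lines are replicates, so p-values measure the spread between lines. Named genes were the 8 members, the 3 genes most like each by rho, and the called genes of a list, at most 3 per direction. Some genes that this rule or a marker list named are not reported here. FCGR2A, FCGR2C, DUSP12 and SDHC were added to these after their values were seen. Members, lists, library classes and tests were chosen with earlier results of these data known. Promoter windows are RefSeq, GRCh38.p14. Alternatives were no filter, a constant prior, median centring, quantile normalization, first-class or re-analysed lines only, library class as a covariate, voom on recovered reads, and leaving out each line.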

Additional observations from a re-analysis of the deposited data

How the results depend on the processing

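In MCL against the mean of the other pathologies, 0 members were called, and 2 (FCRL5 and FCGR2B) were called within the first library class, with class as a covariate and with voom. In MCL against GCB DLBCL 2 were called, 1 with no filter, 1 with quantile normalization, 1 with class as a covariate and 0 among the re-analysed lines alone. Leaving out 1 line gave 1 to 2 calls in the latter contrast and 0 to 1 in the former, where FCRL5 was called when 1 of MD903, NU-DUL-1, DOHH-2, NU-DHL-1, SU-DHL-6, JVM2 and Z-138 was left out. No difference named for FCRL5, FCRLB or FCGR2B in these contrasts reversed, and the 5 other contrasts had 0 calls under every alternative run. FCRL5 against GCB DLBCL was 2.61 without a filter (adjusted p = 0.061), 2.52 with quantile normalization (0.058) and 2.73 among re-analysed lines (0.077). FCRLB was -2.13 with the covariate (adjusted p = 0.14) and -1.92 among re-analysed lines (0.054). FCGR2B was 2.96 against GCB DLBCL with voom (adjusted p = 0.038). Fewer lines entered the fits of re-analysed and of first-class lines, and otherwise the cause was not tested.

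No paired analysis was possible because the replicate numbers were given in accession order and pair no lines. Second-class GCB DLBCL libraries held 2.55 to 4.84 M reads, where 1 read stood at 5.29 to 5.63, so low values of FCRL4 and of silent members were not resolved there.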

Other observations

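FCRL5 and FCRL1 lie at the 2 ends of the gene cluster, and the log2 value of FCRL1 was subtracted from that of FCRL5 in each line after both had been seen. The difference is not corrected for transcript length, so its sign has no meaning by itself and only its order among lines can be read. It ran from 0.70 to 7.05 in MCL (median 3.54), from -6.62 to 7.02 in GCB DLBCL (median -0.45), from -6.13 to 4.63 in ABC DLBCL and from -5.06 to 0.01 in BL. The lowest MCL value lay above all 3 BL values, and the GCB and ABC DLBCL values overlapped those of MCL.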
